A study of Mus musculus with 8 samples.

Results

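The 33 genes described here encode enzymes and regulators of cholesterol and fatty acid synthesis, out of 21154 genes that could be named on the array. They were listed by pathway membership, and no measured value entered the rule, but the list was chosen with earlier results of these data known. The list holds 18 sterol enzymes in pathway order, 6 regulators and 9 fatty acid genes, and it does not hold every enzyme of either route. Peritoneal macrophages of mice lacking Fra-1 (gene Fosl1) or Fra-2 (gene Fosl2), transcription factors of the AP-1 family, were profiled with floxed littermates on 8 single-colour Agilent arrays, 2 per group.

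The Fra-1 control cells came from mice with genotype wild-type Fra-1lox/lox and the Fra-1 knockout cells from Fra-1lox/lox MxCre-/+ mice. The Fra-2 control cells came from wild-type Fra-2lox/lox mice and the arrays labelled Fra-2 knockout from Fra-2lox/lox LysMCre-/+ mice. MxCre is driven by an interferon-inducible promoter, so it is not restricted to macrophages, and LysMCre is active in cells of the myeloid lineage. All mice were 8 weeks old, male or female, on a 129/C57Bl6 background. Cells washed from the peritoneal cavity were plated overnight and those that stayed attached were used. Only the Fra-1 line carried the label thioglycollate elicited, an irritant that draws new monocytes into the cavity, so line, elicitation and preparation cannot be told apart. Nothing in the labels says whether an array stands for a single mouse or a pool, so p-values measure the spread between these arrays.

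Cholesterol is built from acetyl-CoA through mevalonate, isoprenoids, squalene and lanosterol. Fatty acids are built from the same acetyl-CoA by carboxylation, chain assembly, elongation and desaturation. Transcription of both routes is driven by the sterol regulatory element binding proteins, SREBPs, which the escort protein SCAP carries out of the endoplasmic reticulum when sterols are low and which INSIG proteins hold back when sterols are high. SREBP-2 acts mainly on sterol genes and SREBP-1 mainly on fatty acid genes, and in macrophages the same network is tied to inflammatory activation and to the handling of engulfed lipid.

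The promoter is the part of these genes on which SREBPs act, together with nuclear factor Y and Sp1. RefSeq promoters of build GRCm38.p6, from 250 bases before to 50 bases after the annotated start, were found for 26 of the 33 members (34 promoters, since some genes have several starts). Motifs were searched on both strands, and no match overlapped a match of another motif. The nuclear factor Y box CCAAT was in 22 of the 34 promoters (64.7%), against 37.4% of all 32851 promoters. Among sterol enzymes it was in 14 of 18 promoters (77.8%). The Sp1 box GGGCGG was in 26 of 34 (76.5%), against 35.7% of all promoters. The sterol regulatory element searched, TCACNCCAC, was in 1 of 34 (2.94%), that of Hmgcs1, against 1.24%. The AP-1 motif TGANTCA, to which Fra-1 and Fra-2 bind with Jun partners, was in 2 of 34 (5.88%), those of Dhcr7 and Msmo1, against 7.81%. These are matches of letters in a short window and show no binding. The promoters below are shown because Hmgcs1 holds the sterol regulatory element, Idi1 and Tm7sf2 are sterol enzymes whose arrays did not overlap in either knockout comparison or between the controls, and Acly is a fatty acid gene that did not share their pattern. Capitals mark the sterol regulatory element and CCAAT on either strand (ATTGG on the reverse strand), and each sequence reads in the direction of its gene.
Hmgcs1, chr13:119690101-119690400, plus strand: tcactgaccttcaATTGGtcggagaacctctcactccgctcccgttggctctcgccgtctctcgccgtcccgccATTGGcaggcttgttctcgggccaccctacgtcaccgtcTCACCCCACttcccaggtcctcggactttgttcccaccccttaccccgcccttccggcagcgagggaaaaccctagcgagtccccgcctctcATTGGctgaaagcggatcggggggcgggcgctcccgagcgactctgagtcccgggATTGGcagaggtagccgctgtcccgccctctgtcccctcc
Idi1, chr13:8885356-8885655, plus strand: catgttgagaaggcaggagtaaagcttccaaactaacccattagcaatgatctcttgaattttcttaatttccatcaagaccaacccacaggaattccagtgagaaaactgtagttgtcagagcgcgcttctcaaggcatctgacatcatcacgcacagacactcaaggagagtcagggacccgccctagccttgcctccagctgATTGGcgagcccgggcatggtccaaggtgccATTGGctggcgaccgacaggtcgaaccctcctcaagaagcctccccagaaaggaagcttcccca
Tm7sf2, chr19:6067801-6068100, minus strand: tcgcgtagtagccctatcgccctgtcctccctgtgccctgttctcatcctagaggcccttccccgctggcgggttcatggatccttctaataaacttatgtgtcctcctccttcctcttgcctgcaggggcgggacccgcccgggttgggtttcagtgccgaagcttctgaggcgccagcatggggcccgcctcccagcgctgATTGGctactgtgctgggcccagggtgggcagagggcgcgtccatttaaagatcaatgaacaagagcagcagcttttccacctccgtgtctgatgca
Acly, chr11:100527951-100528250, minus strand: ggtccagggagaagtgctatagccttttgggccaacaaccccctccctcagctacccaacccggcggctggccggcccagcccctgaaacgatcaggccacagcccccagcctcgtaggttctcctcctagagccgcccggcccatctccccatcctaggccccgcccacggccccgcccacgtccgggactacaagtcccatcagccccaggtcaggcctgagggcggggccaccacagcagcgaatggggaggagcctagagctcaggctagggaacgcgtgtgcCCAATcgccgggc
In Hmgcs1 the sterol regulatory element begins 137 bases before the start and lies among 4 CCAAT boxes. Idi1 holds 2 CCAAT boxes, Tm7sf2 holds 1, and the single box of Acly lies after the start.

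The share of the 59305 noncontrol spots that were well above background ran from 47.7% on Fra-2 knockout 1, the dimmest array, to 57.6% on Fra-2 control 1. Values below are normalized log2 signals: log2 of the processed signal minus the array's 75th percentile, so that 0 is the upper quartile of its array and 1 unit is a doubling. Signals of different genes come from different probes and are not compared. Arrays correlated at 0.983 to 0.992 within groups and at 0.910 to 0.922 between lines. Fosl1 was −2.73 and −1.97 in Fra-1 controls and −4.78 and −4.18 in Fra-1 knockouts, where it was not well above background on either array. The knockout values are therefore only a bound. Fosl1 was at least 3.91-fold higher in the controls, taking for each knockout array the higher of its own value and the lowest signal well above background there. This bound was not tested, and the difference of the values as measured was −2.13 (limma adjusted p = 0.364). Fosl2 did not settle the Fra-2 labels: its brighter probe was 5.51 and 5.57 in controls and 6.43 and 7.14 in the arrays labelled knockout (difference 1.24, limma adjusted p = 0.207), whereas its dimmer probe was −2.59 and −2.64 in controls and −3.96 and −3.82 in the arrays labelled knockout, and was well above background on 1 of those 2. Where these probes lie relative to the deleted part is not known, so directions below are those of the arrays labelled Fra-2 knockout.

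The macrophage markers Adgre1, Cd68, Csf1r and Lyz2 were above background on all 8 arrays. The marker lists of other cells differed mostly between lines. The summed level of 5 fibroblast markers, relative to the 75th percentile, was 109 to 156 in Fra-1 controls, 40.6 to 62.9 in Fra-1 knockouts, 1.36 to 3.21 in Fra-2 controls and 2.72 to 3.11 in the arrays labelled Fra-2 knockout. The summed level of 6 markers of large resident peritoneal macrophages was 12.3 to 14.0 over the Fra-1 line and 156 to 349.7 over the Fra-2 line. That of 4 B cell markers was 1.38 to 5.20 and 38.0 to 80.1 in the same order. Of 6 markers of adipocytes, cells rich in lipogenic enzymes, Adipoq, Plin1, Lep and Cidec were above background on no array. Cfd was above background on some array but was not tested. Slc2a4 was well above background on 4 arrays and was not called between the control groups (1.34, limma adjusted p = 0.0558). Of 41 marker genes tested, limma called 0 in either knockout comparison and 33 between the control groups, beside 36% of all features. All 4 mast cell markers (median log2 difference −5.48) and all 4 T cell markers (−3.05) were lower in Fra-1 controls, and all 5 mesothelial markers (3.01) were higher. Of the 8 macrophage markers themselves, 5 were lower there and 1 higher, with Cd14 15.4-fold and Csf1r 4.94-fold lower. By an unadjusted p under 0.05, 9 markers differed in the Fra-1 comparison, where 8.84% of all features did. Lower in Fra-1 knockouts were Col1a1, Col1a2, Dcn and Pdgfra of fibroblasts, Upk1b and Wt1 of mesothelium and Gata6 of resident macrophages (−1.45). Timd4 of resident macrophages (0.80) and Cd79a of B cells (1.44) read higher, but both were well above background on only 4 arrays. On every Fra-1 line array both lay below the lowest signal well above background, so their differences are between background signals. In the Fra-2 comparison 3 markers had such a p, where 8.81% of all features did: Gata6 (0.94), Lck of T cells (−0.55) and S100a9 of neutrophils. S100a9 was −2.40 and −4.14 in Fra-2 controls and 3.09 and 0.23 in the arrays labelled knockout (4.93, SE 1.10, 30.4-fold, limma adjusted p = 0.262). The other neutrophil markers tested, S100a8 (0.56) and Retnlg (−1.06), differed in opposite directions with overlapping arrays. In such bulk RNA, fewer cells of a type and less RNA per cell cannot be told apart, and the part of other cells in the differences below was not tested.

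Of the 33 members, 31 were tested, and each of these was above background on all 8 arrays. They have 47 probes, and the brightest that passed the filter stood for a gene. Fads2, the delta-6 desaturase, was well above background on 2 of 8 arrays and was not tested. Hmgcs1, which makes HMG-CoA, had its bright spot set aside as an outlier on Fra-2 control 2. It was 4.73 and 4.91 in Fra-1 controls, 5.07 and 5.11 in Fra-1 knockouts, 4.66 in Fra-2 control 1, and 3.92 and 4.39 in the arrays labelled Fra-2 knockout. With that spot kept at 3.67 it was called in no comparison (limma adjusted p = 0.835 for Fra-1 and 0.999 for Fra-2).

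**Figure D1:**
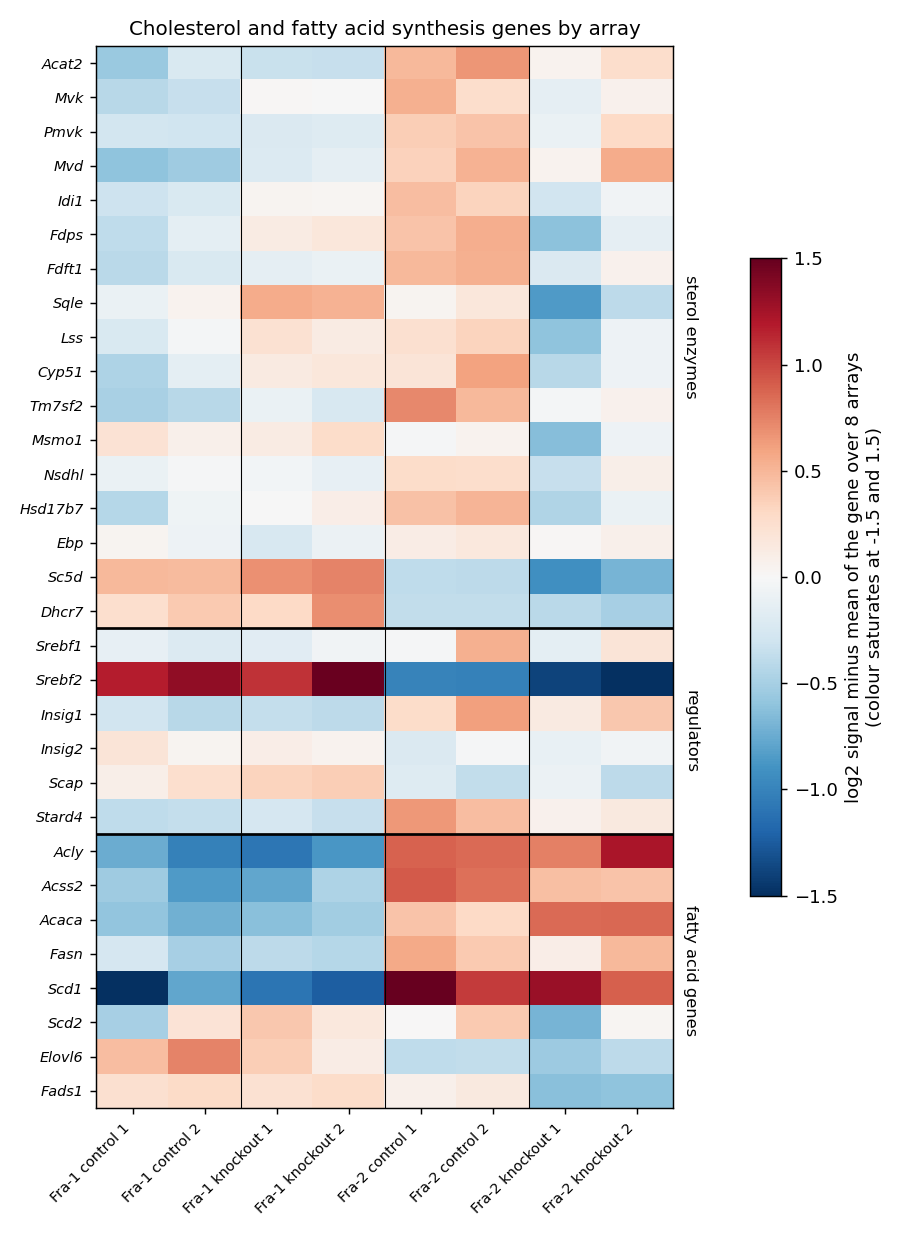
Normalized log2 signal of the 31 tested members on each of the 8 arrays, each gene minus its own mean over the arrays, with red above and blue below that mean and colour saturating at −1.5 and 1.5. Sterol enzymes are in pathway order at the top, and the Fra-2 control columns are red for most of them, while Sc5d, Dhcr7 and Srebf2 are red in the Fra-1 line.

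Averaged by role after each gene was centred on its mean over the 8 arrays, the 17 sterol enzymes stood at −0.22 and −0.10 in Fra-1 controls, 0.06 and 0.09 in Fra-1 knockouts, 0.26 and 0.30 in Fra-2 controls and −0.35 and −0.04 in the arrays labelled Fra-2 knockout. Both knockout arrays therefore lay above their controls in the Fra-1 line and below them in the Fra-2 line. The 8 fatty acid genes stood at −0.46 and −0.33, −0.37 and −0.37, 0.52 and 0.45, and 0.20 and 0.37 in the same order, which separates the lines more than the genotypes. The mean over sterol enzymes minus that over fatty acid genes was 0.24 and 0.22 in Fra-1 controls, 0.43 and 0.47 in Fra-1 knockouts, −0.26 and −0.15 in Fra-2 controls and −0.54 and −0.40 in the arrays labelled Fra-2 knockout. The mean over all 22910 features tested stayed between −0.05 and 0.06 on every array.

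**Figure D2:**
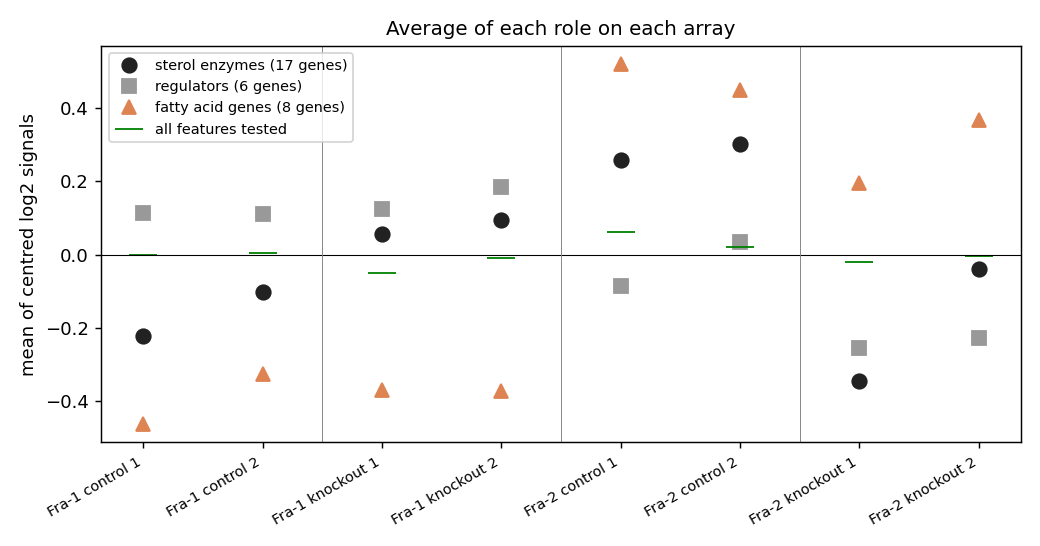
Mean of the centred log2 signals of 17 sterol enzymes (circles), 6 regulators (squares) and 8 fatty acid genes (triangles) on each array, with the mean over all features tested as a green line. The circles lie higher in knockouts than in controls in the Fra-1 line and lower in the Fra-2 line, and the triangles differ mainly between the lines.

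The first comparison asks what loss of Fra-1 did to these genes. No member passed the threshold of an adjusted p under 0.05 by limma, where 0.0131% of all features did. By an unadjusted p under 0.05, 2 members stood higher, Mvk and Sqle, where 3.4% of all features did, and 0 stood lower, where 5.43% did. The median log2 difference was 0.28 over the sterol enzymes, 0.04 over the regulators and 0.03 over the fatty acid genes, beside 0.03 over all features. Of 17 sterol enzymes, 15 had a difference above 0, as did 55.2% of all features, and 12 had both knockout arrays above both controls, whereas of all features 27.6% did. None of the 8 fatty acid genes did. Both knockout arrays lay below both controls for 2 members, Ebp and Elovl6, beside 18.7% of all features.

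Squalene epoxidase, Sqle, which opens the oxygen-dependent part of the pathway, was 3.79 and 3.94 in Fra-1 controls and 4.45 and 4.41 in knockouts. The arrays did not overlap, and the difference was 0.56 (SE 0.18, 1.48-fold, limma adjusted p = 0.454). Mevalonate kinase, Mvk, read 3.60 and 3.67 without the deletion and 4.04 and 4.01 with it. Its difference was 0.39 (SE 0.14, limma adjusted p = 0.530), again without overlap. Isopentenyl diphosphate isomerase, Idi1, read 3.24 and 3.32 on control and 3.59 and 3.57 on knockout arrays (0.30, SE 0.13, limma adjusted p = 0.593). Farnesyl diphosphate synthase, Fdps, read 4.39 and 4.62 on control and 4.90 and 4.94 on knockout arrays (0.41, SE 0.19, limma adjusted p = 0.614). Lanosterol demethylase, Cyp51, read −0.07 and 0.25 on control and 0.54 and 0.57 on knockout arrays (0.46, SE 0.21, limma adjusted p = 0.606). In each of these genes the lower knockout array lay above the higher control array.

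Along the pathway, differences in the Fra-1 line were between 0.28 and 0.56 at Mvk, Mvd, Idi1, Fdps, Sqle, Lss, Cyp51, Tm7sf2 and Hsd17b7. They were 0.08 at Pmvk, 0.21 at Fdft1 by its brighter probe (−0.10 by its dimmer probe), 0.24 at Sc5d and 0.18 at Dhcr7. The smallest were those of Acat2 (0.05), Msmo1 (0.05) and Nsdhl (−0.02), with −0.15 at Ebp, the sterol isomerase. Of the regulators, the largest difference was that of Scap, 0.18 (limma adjusted p = 0.761), and Srebf1 (0.05), Srebf2 (0.02), Insig1 (−0.02), Insig2 (−0.04) and Stard4 (0.07) differed less. Among fatty acid genes, Elovl6, the elongase that takes palmitate to stearate, read 0.24 and 0.51 on control and 0.15 and −0.12 on knockout arrays. Its arrays did not overlap, in the opposite direction to the sterol enzymes (−0.36, SE 0.16, limma adjusted p = 0.588). Scd2, a stearoyl-CoA desaturase, differed by 0.43 with overlapping arrays, 2.87 and 3.58 against 3.78 and 3.53. The other fatty acid genes lay between −0.10 (Acly) and 0.13 (Scd1).

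The sterol median was 0.21 without Fra-1 control 1, 0.32 without control 2, 0.27 without knockout 1 and 0.25 without knockout 2. With slide as a block it was 0.21, and 13 of 17 sterol enzymes had a difference above 0. Within slide 1, which held both controls and knockout 1, the sterol median was 0.25. The fibroblast markers given above were lower in both knockout arrays than in both controls, and their part in these differences was not tested.

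The second comparison asks the same of loss of Fra-2. No member passed an adjusted p under 0.05 by limma, where 0.00873% of all features did. By an unadjusted p under 0.05, 16 of 31 members stood lower, beside 5.81% of all features, and 1 stood higher, Acaca, beside 3.01%. These 16 were 12 sterol enzymes, Srebf2, Stard4, Acss2 and Fads1. The median log2 difference was −0.44 over the sterol enzymes, −0.20 over the regulators and −0.23 over the fatty acid genes, beside −0.03 over all features. All 17 sterol enzymes had a difference below 0, as did 54.8% of all features, and in 16 both arrays lay below both controls, where 20.1% of all features did. Both arrays lay above both controls for 1 member, Acaca, beside 15% of all features.

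Fads1, the delta-5 desaturase of polyunsaturated fatty acids, had the smallest p of the members. It was 1.71 and 1.78 in Fra-2 controls and 1.0 and 1.03 in the arrays labelled knockout, against 1.88, 1.92, 1.87 and 1.91 in the Fra-1 line. The groups did not overlap, and the difference was −0.73 (SE 0.11, 1.66-fold, limma adjusted p = 0.128). Farnesyl diphosphate synthase, Fdps, was 5.20 and 5.32 in controls and 4.15 and 4.64 in the arrays labelled knockout, the largest difference of a member here (−0.87, SE 0.19, 1.82-fold, limma adjusted p = 0.260). Idi1, which lies just before it, was 4.01 and 3.88 in controls and 3.26 and 3.50 in the arrays labelled knockout (−0.57, SE 0.13, limma adjusted p = 0.276). Tm7sf2, a sterol C14 reductase, was 2.56 and 2.32 in controls and 1.81 and 1.91 in the arrays labelled knockout (−0.58, SE 0.14, limma adjusted p = 0.276). In all 3 sterol enzymes the arrays did not overlap. Hsd17b7, a sterol ketoreductase, was 0.52 and 0.60 against −0.37 and −0.02 (−0.76, SE 0.18, limma adjusted p = 0.288). Squalene synthase, Fdft1, was 2.53 and 2.58 against 1.82 and 2.11 by its brighter probe (−0.59, SE 0.14, limma adjusted p = 0.299). Its dimmer probe overlapped and differed by −0.08 (limma adjusted p over all probes = 0.984).

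Along the pathway the differences were −0.42 at Acat2, −0.44 at Mvk and −0.30 at Pmvk, then −0.13 at Mvd, the mevalonate diphosphate decarboxylase, where the arrays overlapped. They ran from −0.57 to −0.87 over Idi1, Fdps, Fdft1, Sqle, Lss, Cyp51, Tm7sf2 and Hsd17b7, with Msmo1 (−0.37) and Nsdhl (−0.40) smaller. Of the last steps, Sc5d differed by −0.42, Ebp by −0.09 and Dhcr7 by −0.08. Sqle was 3.93 and 4.06 in controls and 3.04 and 3.50 in the arrays labelled knockout, which lay on the other side of its controls from the Fra-1 line. In 16 of 17 sterol enzymes, all but Dhcr7, knockout 1 read lower than knockout 2.

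The regulators were not uniform. Stard4, a carrier of cholesterol between membranes and a known SREBP-2 target, was 2.80 and 2.62 in Fra-2 controls and 2.22 and 2.31 in the arrays labelled knockout (−0.45, SE 0.12, limma adjusted p = 0.341). Srebf2 by its brighter probe differed by −0.53 (SE 0.18, limma adjusted p = 0.471), from 2.44 and 2.42 to 2.05 and 1.77, and its dimmer probe by −0.26. Insig1, also an SREBP target, differed by −0.18 with overlapping arrays, while Insig2 and Scap both differed by 0.04.

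Fatty acid genes differed among themselves. Acaca, acetyl-CoA carboxylase 1, the committed step, was 4.12 and 4.00 in Fra-2 controls and 4.54 and 4.56 in the arrays labelled knockout. Both of these arrays lay above both controls (0.49, SE 0.12, limma adjusted p = 0.299). Acss2, which makes acetyl-CoA from acetate, was 1.36 and 1.28 against 0.89 and 0.88 (−0.44, SE 0.17, limma adjusted p = 0.544). Acly, which makes acetyl-CoA from citrate, overlapped between groups at 6.90 and 6.87 against 6.77 and 7.24. Fasn (−0.18), Scd1 (−0.27) and Scd2 (−0.53) overlapped too, and Elovl6 differed by −0.09.

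The size of these differences varied with the arrays used. On knockout 1 all 17 sterol enzymes lay below both controls, and 16 did on knockout 2, with Mvd above both. Without knockout 1 the sterol median was −0.34, with 6 sterol enzymes at an unadjusted p under 0.05, and without knockout 2 it was −0.63, with 14. Within slide 1 the sterol median was −0.62 and within slide 2 it was −0.38. Knockout 1 was also the array with the fewest spots above background and the highest S100a9, whereas S100a8 was higher on knockout 2 (4.71 against 4.09). Whether the spots above background or these markers bear on the members was not tested.

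**Figure D3:**
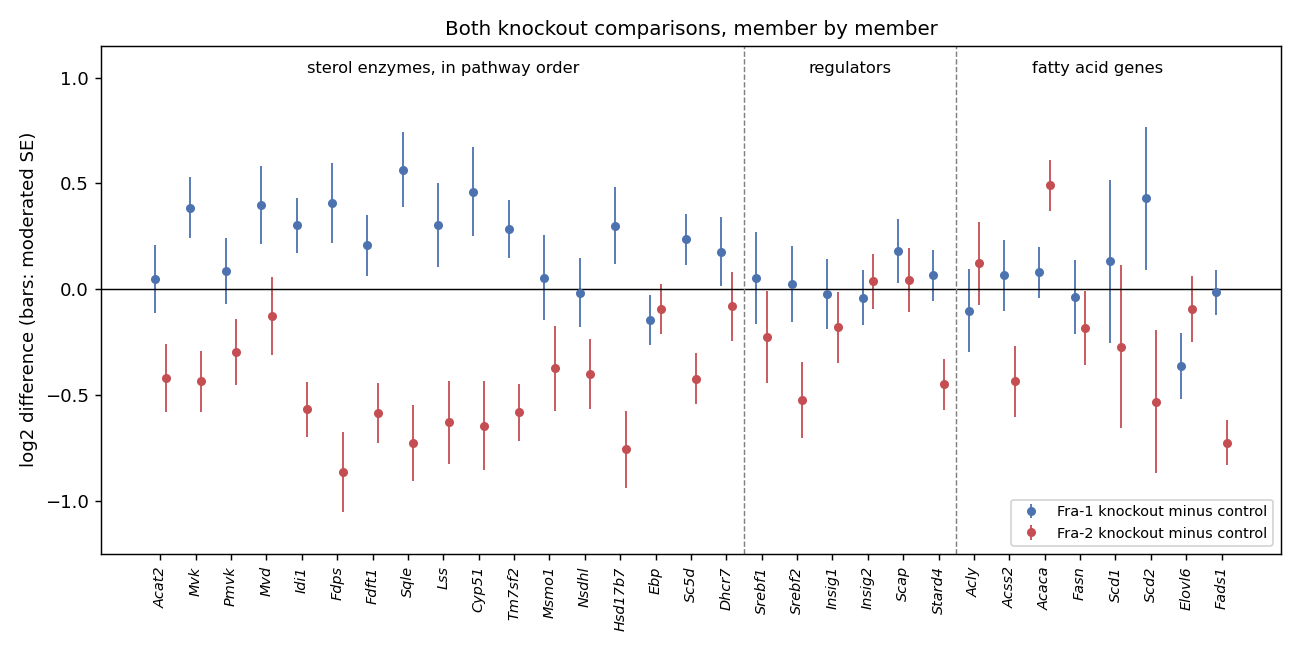
Log2 difference of each tested member in the Fra-1 comparison (blue) and the Fra-2 comparison (red), with bars of 1 moderated standard error. Blue points of sterol enzymes lie mostly between 0 and 0.56, red ones between −0.87 and −0.08, and among the fatty acid genes on the right the bars are apart at Acss2, Scd2 and Fads1, with blue higher, and at Acaca, with red higher.

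The difference of both effects, the Fra-1 difference minus the Fra-2 difference, was tested as a contrast over all 8 arrays. It is formed from both knockout comparisons, so it restates them and adds no further arrays. No member passed an adjusted p under 0.05 by limma, where 0.00436% of all features did. By an unadjusted p under 0.05, 12 of 31 members were positive, beside 5.4% of all features, and 0 were negative, beside 4.16%. These were 10 sterol enzymes, Stard4 and Fads1. The median contrast was 0.79 over sterol enzymes, 0.22 over regulators and 0.27 over fatty acid genes, beside 0.05 over all features.

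Sqle had the largest contrast, 1.29 (SE 0.25, limma adjusted p = 0.236), made of 0.56 in the Fra-1 line and −0.73 in the Fra-2 line. The contrast of Fdps was 1.27 (SE 0.27, limma adjusted p = 0.268), that of Idi1 0.87 (SE 0.19, limma adjusted p = 0.271) and that of Tm7sf2 0.87 (SE 0.19, limma adjusted p = 0.283). Hsd17b7 reached 1.06 (SE 0.26, limma adjusted p = 0.322). Fads1 reached 0.71 (SE 0.15, limma adjusted p = 0.268), of which −0.01 came from the Fra-1 line and −0.73 from the Fra-2 line. Scd2, with overlapping arrays in both lines, had a contrast of 0.96 (SE 0.48, limma adjusted p = 0.583). In 11 of 17 sterol enzymes (64.7%) and in Stard4 the arrays did not overlap in either line, with knockouts higher in the Fra-1 line and lower in the Fra-2 line, where 5.98% of all features showed this pattern. None of the 8 fatty acid genes showed it. By their dimmer probes, Fdft1 overlapped in both lines and Tm7sf2 in the Fra-1 line. The deletions also differed in Cre line and elicitation, and these and the deleted factor cannot be told apart.

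The comparison of the control groups gives the level of these genes in the floxed control cells of each line. This comparison cannot separate line from elicitation and preparation. In it 17 members fell and 4 rose in Fra-1 controls relative to Fra-2 controls, that is 21 of 31 called by limma at an adjusted p under 0.05, beside 36% of all features (17.9% lower and 18.1% higher). The 17 were 10 sterol enzymes, Insig1, Stard4 and 5 fatty acid genes, and the 4 were Sc5d, Dhcr7, Srebf2 and Elovl6. The median log2 difference was −0.69 over the sterol enzymes, −0.09 over the regulators and −0.93 over the fatty acid genes, beside −0.03 over all features. This comparison uses the same control arrays as the knockout comparisons, so it is set beside them and not used in support of them.

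The tested enzymes of the early sterol route were lower in Fra-1 controls. Acat2, which joins acetyl-CoA units, was −1.96 and −1.64 in Fra-1 controls and −0.92 and −0.74 in Fra-2 controls (−0.97, SE 0.16, 1.96-fold, limma adjusted p = 0.00606). Mvk was 3.60 and 3.67 against 4.55 and 4.28 (−0.78, SE 0.14, limma adjusted p = 0.00873). Pmvk, phosphomevalonate kinase, was 3.69 and 3.67 against 4.34 and 4.39 (−0.69, limma adjusted p = 0.0181). For these genes every Fra-1 control array lay below every Fra-2 control array. Mvd was 1.73 and 1.80 against 2.69 and 2.85 (−1.0, SE 0.19, 2.01-fold, limma adjusted p = 0.00897). Idi1 was 3.24 and 3.32 against 4.01 and 3.88 (−0.67, limma adjusted p = 0.0112), and Fdps 4.39 and 4.62 against 5.20 and 5.32 (−0.75, limma adjusted p = 0.0265). Fdft1 was 1.63 and 1.81 against 2.53 and 2.58 by its brighter probe (−0.83, limma adjusted p = 0.00698), but its dimmer probe differed by 0.036. Hmgcs1, which was not tested, ran the other way, with 4.73 and 4.91 in Fra-1 controls against 4.66 on Fra-2 control 1. With its outlier spot kept it differed by 0.64 (limma adjusted p = 0.185).

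From squalene onward the picture was mixed. Sqle was not called at 3.79 and 3.94 against 3.93 and 4.06 (−0.13, limma adjusted p = 0.604), nor were Lss (−0.42), Msmo1 (0.13), Nsdhl (−0.33) and Ebp (−0.16). Tm7sf2 fell, with 1.35 and 1.42 against 2.56 and 2.32 (−1.06, SE 0.14, 2.08-fold, limma adjusted p = 0.00243). Cyp51 was −0.07 and 0.25 against 0.59 and 1.0 (−0.70, limma adjusted p = 0.0442), and Hsd17b7 −0.35 and 0.01 against 0.52 and 0.60 (−0.73, limma adjusted p = 0.0246). Of the last steps, Sc5d and Dhcr7 ran the other way. Sc5d, lathosterol oxidase, was 3.88 and 3.88 in Fra-1 controls and 3.02 and 3.00 in Fra-2 controls (0.87, SE 0.12, 1.82-fold, limma adjusted p = 0.00332). Dhcr7, the reductase that finishes one branch, was 0.63 and 0.78 against 0.01 and 0.01 (0.70, limma adjusted p = 0.0204).

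Among regulators, Stard4 was 1.78 and 1.80 against 2.80 and 2.62 (−0.92, SE 0.12, 1.89-fold, limma adjusted p = 0.00274). Insig1 was 0.40 and 0.27 against 0.97 and 1.31 (−0.80, limma adjusted p = 0.0136). Both are known targets of SREBPs and both fell with most sterol enzymes. Srebf2, which encodes SREBP-2, gave opposite answers by probe. Its brighter probe was 4.62 and 4.77 against 2.44 and 2.42 (2.26, SE 0.18, 4.80-fold, limma adjusted p = 0.000517), and its dimmer probe was 0.47 and 0.58 against 1.26 and 1.51 (−0.86, limma adjusted p over all probes = 0.00627). Its direction is therefore uncertain, and the average of the regulators by array carries the brighter probe. Scap (0.46, limma adjusted p = 0.0595), Srebf1 (−0.42) and Insig2 (0.24) were not called.

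Of the roles on the list, fatty acid genes had the median furthest from 0. The 21 other fatty acid genes tested, which were not on the list, had a median of 0.02 (−0.90 to 1.26). Scd1, the stearoyl-CoA desaturase that makes oleate, was −2.25 and −1.22 in Fra-1 controls and 1.25 and 0.60 in Fra-2 controls (−2.66, SE 0.39, 6.34-fold, limma adjusted p = 0.00375). Acly was 5.28 and 5.00 against 6.90 and 6.87 (−1.74, SE 0.20, 3.35-fold, limma adjusted p = 0.00158). Acss2 was −0.08 and −0.40 against 1.36 and 1.28 (−1.56, SE 0.17, 2.95-fold, limma adjusted p = 0.00135). In these genes both suppliers of acetyl-CoA and the desaturase were lower on both Fra-1 control arrays. Acaca was 3.11 and 2.98 against 4.12 and 4.00 (−1.02, 2.02-fold, limma adjusted p = 0.00189). Fasn, fatty acid synthase, was −2.90 and −3.15 against −2.09 and −2.26 (−0.85, limma adjusted p = 0.0129). Elovl6 was 0.24 and 0.51 against −0.61 and −0.59, and thus higher in Fra-1 controls (0.98, SE 0.16, 1.97-fold, limma adjusted p = 0.00534). Scd2 (−0.34, limma adjusted p = 0.468) and Fads1 (0.16, limma adjusted p = 0.293) were not called.

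**Figure D4:**
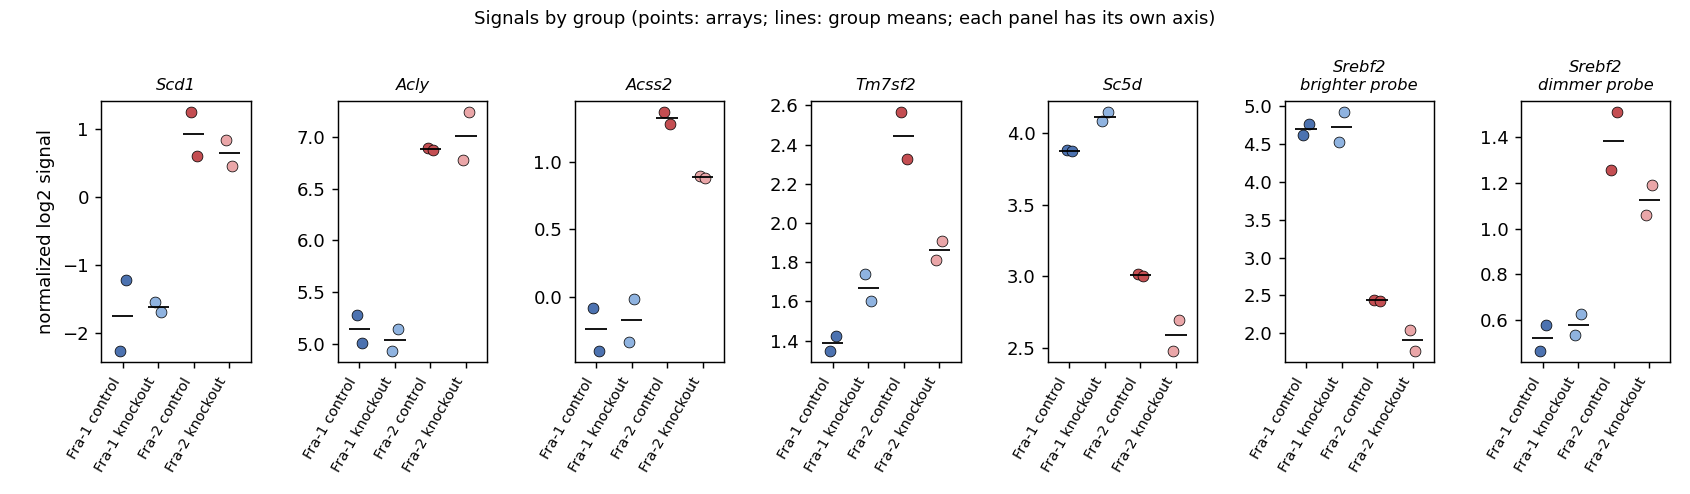
Normalized log2 signal of 6 members on each array (points) with group means (lines), each panel on its own axis and Srebf2 shown by both probes. Scd1, Acly, Acss2 and Tm7sf2 lie lower in the Fra-1 line, Sc5d lies higher, and the probes of Srebf2 run in opposite directions between the lines.

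Of the 21 members called between the control groups, 11 were called in the same direction in each of 19 other settings: Acat2, Mvk, Mvd, Tm7sf2, Sc5d, Stard4, Acly, Acss2, Acaca, Scd1 and Elovl6. The other 10 lost the call in at least 1 setting or, for Srebf2, turned. Leaving out any of the 4 control arrays brought the count to 15. As given above, markers of macrophages, resident macrophages, B cells, T cells, mast cells, fibroblasts and mesothelium differed between the control groups too, and their part was not tested.

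Other genes of both routes that were not on the list were counted with it. Of 46 tested, none was called in a knockout comparison by limma, with 3 at an unadjusted p under 0.05 in the Fra-1 comparison, all higher, and 10 in the Fra-2 comparison, 5 higher and 5 lower. Of all features 8.84% and 8.81% had such a p. Between the control groups 18 were called, 11 higher and 7 lower in Fra-1 controls, and of all features 36% were called. In the Fra-1 comparison the smallest p belonged to Mcat (0.40), Tecr (0.33), Lpcat3 (0.32) and Npc2 (−0.36), with limma adjusted p from 0.499 to 0.564. In the Fra-2 comparison Nr1h3, which encodes the sterol sensor LXR alpha, was 3.17 and 3.56 in controls and 1.20 and 1.72 in the arrays labelled knockout (−1.90, SE 0.24, 3.74-fold, limma adjusted p = 0.101). Tmem97, a sterol-responsive membrane protein, differed by −0.56 (limma adjusted p = 0.229). Contrasts of small p between the effects were those of Nr1h3 (1.93), Cd36 (1.39) and Lpl (0.92), with limma adjusted p from 0.215 to 0.326. Between the controls Abcg1, a cholesterol exporter, rose to 5.98 and 5.63 from 2.96 and 3.09 (2.78, limma adjusted p = 0.000209), whereas the exporter Abca1, also named after its values were seen, fell (−2.49, limma adjusted p = 0.000755).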

How the data were processed

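RNA from adherent peritoneal macrophages was labelled with Cy3 and hybridised to 8 single-colour Agilent arrays. The authors' deposited scanner files hold linear intensities from Feature Extraction 11.5.1.1 (protocol GE1_1105_Oct12), with background already subtracted, per the file headers, along with flags for dim, outlying and saturated spots. The deposited series matrix holds log2 values with a median of 0 per probe, found by setting it against the scanner values (differences between arrays correlated at 0.99999), and served as an alternative.

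Control spots and outlier spots were left out, spots of a probe were averaged, and log2 of the processed signal minus the array's 75th percentile was used. Probes had to exceed background clearly on all arrays of some group: of 55681 noncontrol probes, 30819 passed. Accessions gave gene names through a RefSeq table of GRCm38.p6 (28026 probes), while the headers name build mm9. The brightest probe stood for a gene, which left 22910 features.

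A mean per group was fitted with limma 3.58.1 (R 4.3.3), all arrays sharing 1 estimate of spread, with Benjamini-Hochberg adjustment over all features within a comparison. Calls used an adjusted p under 0.05, and SE is moderated. The script was tested on simulated data. Tables and figures used Python 3.11.15, pandas 2.3.3, numpy 2.4.6 and matplotlib 3.10.9.

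Members and lists were chosen with earlier results of these data known. Full values were to be given for members called in a comparison, or otherwise for the 6 with the smallest p, and other pathway genes were named by the 4 smallest p, of which 1 is not reported here. Alternatives were quantile normalization, normexp with an offset of 50 (run on median signals), the series matrix, other filters, the mean of probes, slide as a block or within slides, a common floor, only the groups compared, and leaving out each array. Keeping outlier spots and taking the dimmest probe were added after seeing the data. On slide 2 were Fra-1 knockout 2, Fra-2 control 2 and Fra-2 knockout 2, and the remaining arrays were on slide 1. With 2 arrays per group, the number of arrays limits precision.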

Additional observations from a re-analysis of the deposited data

How the results depend on the processing

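No member was called in the Fra-1 comparison or in the contrast of effects in any setting. In the Fra-2 comparison 1 was called with a common floor for dim signals (Fads1, −0.73, limma adjusted p = 0.0417). The median difference of all 31 members was 0.08 in the Fra-1 comparison (0.072 to 0.21 leaving out 1 array at a time), −0.42 in the Fra-2 comparison (−0.49 to −0.32), −0.69 between the controls (−0.71 to −0.55) and 0.50 for the contrast (0.47 to 0.58). The highest Fra-1 values came from leaving out Fra-1 control 2 (0.21) or Fra-1 knockout 1 (0.19), the weakest Fra-2 value came without Fra-2 knockout 1, and the weakest control value without Fra-1 control 1. The Fra-2 median was −0.32 by each gene's dimmest probe and −0.31 within slide 2, and the contrast was 0.61 within slide 1. The number of members called between the controls was 21, and 15 to 22 leaving out 1 array. Calls of Fdps, Cyp51 and Hsd17b7 were lost with slide as a block (18 called), and these, Pmvk and Dhcr7 without a filter (16 called). By the dimmest probe, the control difference of Fdft1 turned to 0.036 and that of Srebf2 to −0.86, and the contrast of Fdft1 to −0.023. The cause of these changes was not tested. Slide was run as a block, and since each slide held 1 Fra-2 control and 1 Fra-2 knockout array, this pairs the arrays of the Fra-2 comparison, where the median of the 31 members was again −0.42 and 0 were called. The labels give no replicate numbers by which to pair other arrays. Signal over background limited Fads2, whereas the 31 tested members were above background on all 8 arrays.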

Other observations

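Genes of lipid uptake and storage, which supply cholesterol and fatty acids from outside the cell, were counted separately. Of 6 tested, 5 rose in Fra-1 controls relative to Fra-2 controls, where 18.1% of all features did, and the median log2 difference was 2.20, beside −0.03 over all features. Plin2, the coat protein of lipid droplets, was 9.20 and 8.62 in Fra-1 controls and 5.82 and 5.61 in Fra-2 controls (3.20, limma adjusted p = 0.00202). Cd36, a scavenger receptor and fatty acid translocase, was 6.18 and 6.44 against 3.50 and 3.23 (2.95, limma adjusted p = 0.000449). Lpl, lipoprotein lipase, was 8.68 and 8.41 against 5.88 and 6.19 (2.51, limma adjusted p = 0.000286). Npc1 (1.89) and Npc2 (1.03), which move cholesterol out of lysosomes, rose as well, and Scarb1, a lipoprotein receptor, was not called (−0.34, limma adjusted p = 0.0825). Markers of macrophages, resident macrophages, B cells, T cells, mast cells, fibroblasts and mesothelium differed between the same arrays, and their part was not tested.

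In the Fra-2 comparison none of these 6 genes was called by limma, with 2 at an unadjusted p under 0.05, both lower, as were 5.81% of all features. Cd36 was 3.50 and 3.23 in controls and 2.39 and 1.91 in the arrays labelled Fra-2 knockout (−1.21, limma adjusted p = 0.184). Lpl was 5.88 and 6.19 against 5.22 and 5.18 (−0.84, limma adjusted p = 0.196). Dgat2, an enzyme of triglyceride synthesis named after its values were seen, was −0.73 and 0.21 in controls and 1.41 and 4.31 in the arrays labelled Fra-2 knockout, which lay far apart. Its difference of 3.12 (SE 0.90) was not called (limma adjusted p = 0.375).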
